A study of Salmo salar with 12 samples.

Results

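The 1000 most accessible peaks of the liver were examined in female Atlantic salmon (Salmo salar) during the onset of sexual maturation. They were the peaks with the highest mean accessibility over 12 ATAC-seq libraries, 1000 of 94780 consensus peaks (1.06%), and they are called the members below. Accessibility was expressed as CPM, the reads of a peak scaled so that the reads in all peaks have the same total in every library. The choice used every library, so the level of the members is a description of how they were chosen and was not tested.

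The libraries came from 4 time points with 3 biological replicates each, all from the livers of female fish of 1 management group. T1 was taken just before a long-light photoperiod regime began, and T2, T3 and T4 were taken under that regime at intervals of 2 weeks. Libraries are named by time point and replicate, so T4R2 is replicate 2 of T4. Each library was made from whole liver tissue, so a change in the mix of cell types and a change in accessibility within a cell type cannot be told apart, and with peaks known by number only, the tissue label was not checked against marker genes.

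ATAC-seq uses the transposase Tn5, which inserts adapters where DNA is not wrapped in nucleosomes, and the number of reads in a region follows how open it is. In vertebrate tissues the most open regions are often promoters of broadly expressed genes and sites bound by architectural proteins, joined by strong enhancers of the main cell type. In a female fish approaching maturation, the liver is known for the response of hepatocytes to oestrogen, which includes the synthesis of the yolk precursor vitellogenin. The count table identifies peaks by number and gives neither position nor width. For that reason no gene, genomic feature or sequence is named here, and a member may rank high because it is wide as well as because it is open.

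The total count in peaks ranged from 4199681 in T4R2 to 31312069 in T1R3. With these totals the median member held 217 counts in T4R2 and 2600 counts in T1R3. The members were therefore measured with little counting error, although PCR reads are not independent molecules. T4R1 and T4R2 stood apart from the other libraries in most of the measures below. Values without T4R1, T4R2 or both are given for some of the results that rest on them, but not for all. None is given for the spread between replicates, the ratio of highest to lowest library or the peak list of T4. T4R2 was the shallowest library, whereas T4R1, with 11568806 counts, was close in depth to T1R1 with 11796690.

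Mean CPM over the members ran from 66.1 to 237, with a median of 81.0 against a median of 5.37 over all peaks. A total of 215 members exceeded 100 CPM and 22 exceeded 150 CPM. The limit of the list fell on a smooth slope. The last peaks inside it were peak22800 and peak21479, both at 66.1 CPM, and the first outside were peak86123 and peak49628, also at 66.1 CPM. The list therefore has no natural edge.

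The members held 8.81% of all counts on average. Accessibility in liver was thus spread over many regions, and between 10765 peaks (T1R2) and 19158 peaks (T4R2) were needed to reach 50% of the counts of a library. The 10 highest peaks held 0.197% of the counts, ranks 11 to 100 held 1.21% and ranks 101 to 1000 held 7.40%. The next 1000 peaks held 5.88%, not far below the members.

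At T1 the members held 8.35%, 10.3% and 8.83% of the counts in replicates 1 to 3. At T2 these shares were 9.70%, 9.43% and 9.53%, and at T3 they were 9.42%, 9.26% and 7.66%. The T2 libraries lay close together, inside the range of T1. At T4 the shares were 8.03%, 5.49% and 9.71%, so this time point held 1 of the lowest and 1 of the highest libraries. T1 averaged 9.17% ± 1.04, T2 9.55% ± 0.138, T3 8.78% ± 0.976 and T4 7.74% ± 2.12 (SD, n = 3). Against T1, the two-sided exact permutation test gave p = 0.6 for both T2 and T3 and p = 0.4 for T4, with 0.6 for each after Benjamini-Hochberg adjustment over these 3 comparisons. The smallest p that 3 libraries against 3 can give is 0.1. T3 against T2 reached that p, since all 3 T3 libraries lay below the T2 libraries. T4 differed from T2 with an exact permutation p = 0.4 and from T3 with an exact permutation p = 0.7. The difference between T4 and T1 was -1.43 percentage points and shrank to -0.306 without T4R2. The signs at T2 and T3 each turned when 1 library was left out. T2 minus T1 became -0.0313 points without T1R1, and T3 minus T1 became 0.166 points without T3R3 and 0.189 points without T1R2.

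**Figure D1:**
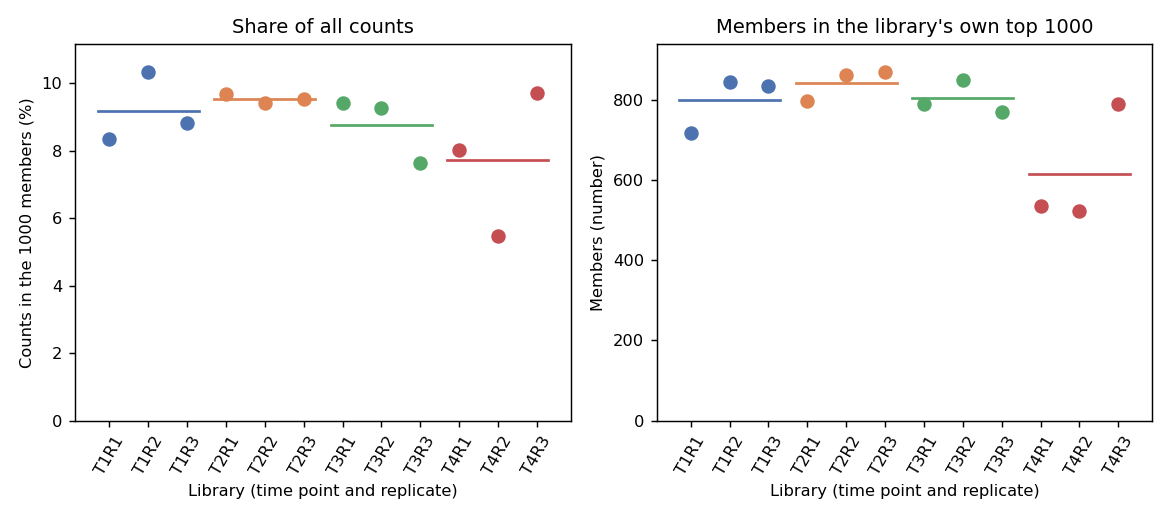
Share of all counts that fell in the 1000 members (left, %) and number of members among a library's own 1000 most accessible peaks (right), by library. Points are single libraries coloured by time point and bars are time point means; T4R2 had the lowest share, 5.49%, and T4R1 and T4R2 kept 535 and 523 members.

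Stability of rank was described by asking how many members were also among the 1000 highest peaks of each library. This number was 717, 844 and 835 at T1, 797, 863 and 870 at T2, and 790, 851 and 771 at T3. It was 535, 523 and 790 at T4. Outside T4R1 and T4R2, then, every library kept at least 71.7% of the members, and these 2 libraries kept 53.5% and 52.3%. Each library helped to choose the list, so the choice was repeated 12 times with 1 library left out, and the peaks chosen on the other 11 were looked up in it. Between 485 (T4R1) and 851 (T2R3) were in the own top 1000 of the library left out, and T1 averaged 777 ± 73.1, T2 823 ± 42.8, T3 786 ± 41.2 and T4 587 ± 160 (SD, n = 3). The picture was close to that with the library included.

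Of the members, 249 were in the own top 1000 of all 12 libraries and 558 in that of at least 10, while 104 were in fewer than 6. Without T4R1 and T4R2 the first number was 453, both for the members as chosen and for 1000 peaks chosen again on the other 10 libraries. A member's worst rank over the libraries had a median of 1873, and it stayed within 5000 for 895 members. The worst rank was in T4R1 for 341 members and in T4R2 for 217. Few members fell far down the list, 12 beyond rank 10000 and 6 beyond rank 20000.

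Lists of 1000 peaks built on the mean CPM of each time point shared 821 peaks between T1 and T2, 830 between T1 and T3 and 847 between T2 and T3. The T4 list shared 659 with T1, 722 with T2 and 699 with T3. All 4 lists held 610 peaks in common, which were all members, and 229 peaks were in the T4 list alone against 104 in T1 alone, 59 in T2 alone and 64 in T3 alone. The list of T4 was thus the most distinct, although T4R3 taken alone kept 790 members, as many as T3R1.

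The order within the list was looser than its membership. Spearman correlations of CPM over the 1000 members had a median of 0.639 over the 12 pairs of libraries from the same time point and 0.594 over the 54 pairs from different ones. Over all 94780 peaks these medians were 0.910 and 0.887, which span a wider range of levels. Members share libraries and a narrow range of levels, so these values are descriptions. The highest coefficient over the members joined T2R1 and T2R2, at 0.847, followed by T4R1 and T4R2 at 0.791. T4R1 and T4R3, although of the same time point, reached 0.080. Apart from pairs with T4R1 or T4R2, the lowest value was 0.402.

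The spread of the members between replicates was lowest at T2 and highest at T4. The median SD of log2 CPM among the 3 libraries of T1, T2, T3 and T4 was 0.29, 0.13, 0.32 and 0.68, in that order. For all peaks it was 0.30, 0.26, 0.35 and 0.56. These SDs used CPM scaled by trimmed mean of M-values (TMM) factors, which correct for differences in composition between libraries. On this scale the highest library exceeded the lowest by more than 4 times in 175 members (17.5%), against 27.6% of all peaks, most of which have lower counts. Peaks at ranks 1001 to 2000, 2001 to 5000 and 5001 to 20000 had lower shares than the members, at 14.8%, 13.9% and 13.2%. The share beyond rank 20000 was 31.3%. T4R2 was the lowest library for 155 of the 175 members.

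T4R1 divided the members. When the TMM-scaled level of each member was set against its median in the other 11 libraries, 411 members lay below -0.75 on the log2 scale in T4R1 and 539 lay at or above -0.5, with only 50 between. The histogram of T4R1 had a hump between -1.25 and -1 (162 members) and another between 0 and 0.25 (171 members). Other libraries showed a single hump, shifted to lower values in T4R2, T3R3 and T1R1. The 411 members low in T4R1 were also the lower ones in T4R2, with a median of -1.46 there against -0.86 for the 539. In T4R3 the same members had a median of 0.30, against 0.04 for the 539. This division was seen in the data and was not tested. The peaks at ranks 1001 to 2000 divided in nearly the same way in T4R1 (39.5% below -0.75, 6.7% between, 53.8% above), whereas 18.7% of all peaks lay below and 10.8% between. Mean CPM hardly separated the sides, with medians of 79.3 for the low members and 82.0 for the others. What the members on each side have in common cannot be read from peak numbers.

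**Figure D2:**
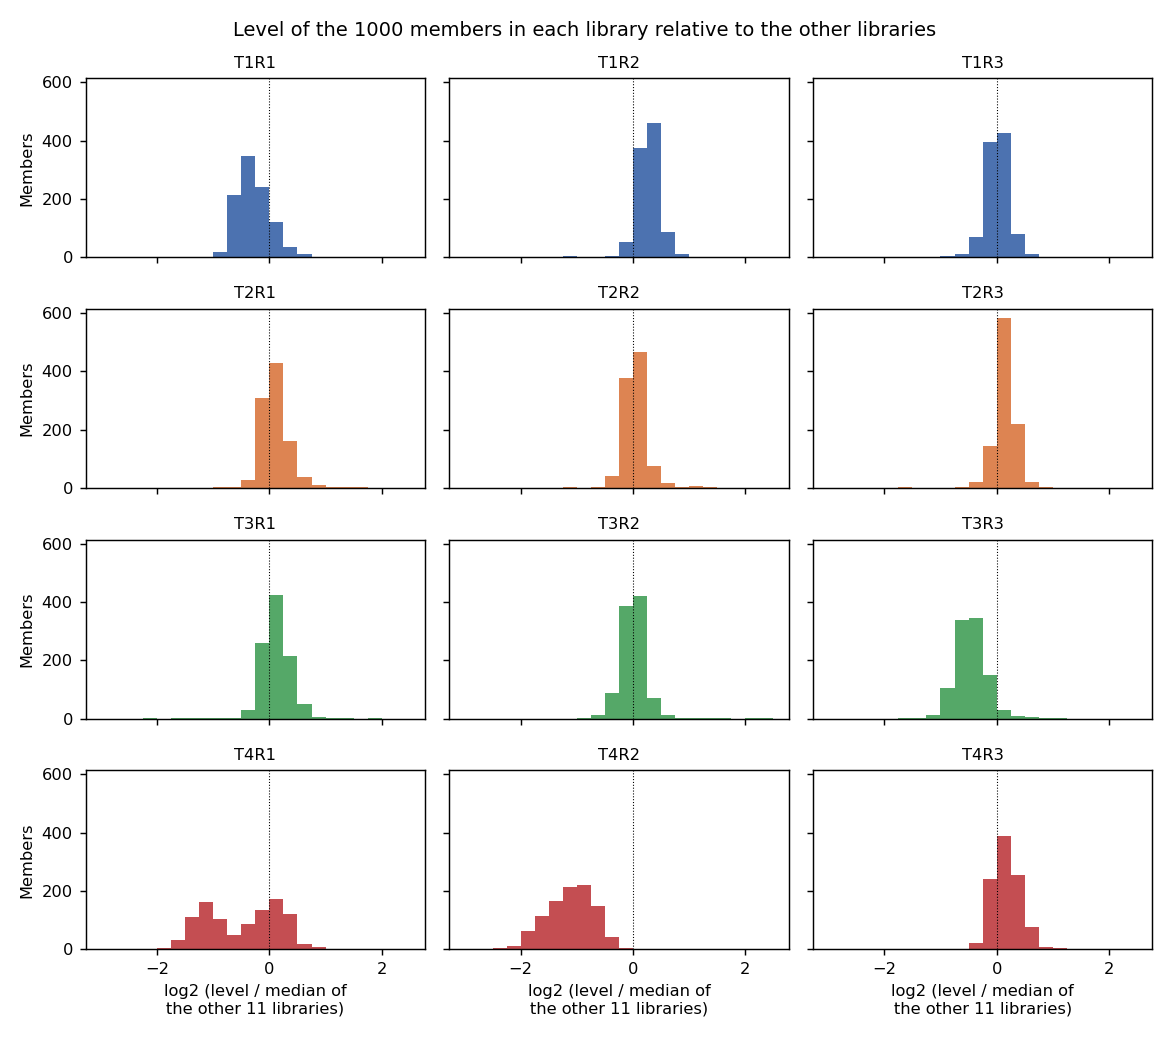
Number of members by level in each library, as log2 of the TMM-scaled CPM over the member's median in the other 11 libraries, in bins of 0.25. T4R1 shows humps near -1.16 and 0.08, the medians of its 411 low and 539 other members, and T4R2 is shifted down as a whole (median -1.09).

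The 10 highest peaks differed in how steady they were. Peak23056 ranked first, with 294, 300 and 212 CPM at T1, 207, 229 and 248 at T2, 244, 238 and 323 at T3, and 138, 105 and 301 at T4. Peak77409, next in rank, had 166, 270 and 197 CPM at T1, 231, 225 and 253 at T2, 198, 238 and 130 at T3, and 279, 126 and 231 at T4. These groups overlapped at every time point. Peak15855, at rank 10, was the steadiest of the 10, between rank 9 and rank 45 in every library and between 119 and 198 CPM. The low values of peak23056 in T4R1 and T4R2 recurred in peak88729 (99.9 and 91.4 CPM against 126 to 281 elsewhere), peak78453 (92.3 and 74.1 against 181 to 276) and peak95594 (101 and 102 against 144 to 235). Peak15761 and peak77409 had 213 and 279 CPM in T4R1. The T4R1 division thus ran through the very top of the list.

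The remaining 3 of the 10 owed their place to some libraries. Peak98484 had 361 CPM in T3R3, 340 in T4R1 and 341 in T4R2, yet 61.5 in T1R3, 52.1 in T2R3 and 64.5 in T3R1. Peak29727 had the highest ratio of worst to best rank of all members, from rank 1 in T4R2 to rank 24275 in T1R3. Its values were 211, 69.1 and 12.7 CPM at T1, 28.6, 44.4 and 35.0 at T2, 31.1, 221 and 175 at T3, and 165, 1033 and 86.8 at T4. Replicates of one time point differed by more than 10 times. T1 overlapped every later time point, and T3 overlapped T2 and T4, but all T4 libraries lay above all T2 libraries. Peak96230, named after its values were seen, followed peak29727 closely (Pearson r = 0.87 over 12 libraries, log2 scale) with 509 CPM in T4R2 and 7.57 in T1R3. Peak76788 belongs to the pattern described next.

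A pattern followed here in 4 members set some libraries apart within time points. Peak101056 had 8.56, 12.5 and 5.46 CPM at T1, 324, 180 and 9.62 at T2, 8.54, 92.1 and 23.8 at T3, and 83.3, 48.3 and 136 at T4. T2R3 and T3R1 were at the level of T1, and all 3 T4 libraries were above it. Peak94180 had 9.16, 9.56 and 3.07 CPM at T1, 314, 126 and 4.99 at T2, 8.75, 119 and 25.5 at T3, and 51.2, 54.3 and 119 at T4. Peak24738 had 16.6, 22.6 and 7.15 CPM at T1, 259, 159 and 15.8 at T2, 19.3, 134 and 51.9 at T3, and 62.5, 59.5 and 141 at T4. High libraries were the same in these 3 peaks, and Pearson r between them was 0.98 to 0.99 over the 12 libraries. Peak76788, at rank 3, was highest in T2R1, T2R2, T3R2 and T4R3, where the other 3 were high too, but its remaining later libraries lay within the range of T1, with 133, 173 and 115 CPM at T1, 492, 358 and 138 at T2, 115, 237 and 171 at T3, and 160, 138 and 274 at T4 (r = 0.82 to 0.85 with the other 3). The pattern was not confined to these 4, since peak19644 (r = 0.86) and peak39856 (r = 0.75) also exceeded r = 0.7 with peak101056. The 4 peaks were named for their level, rank ratio or fold change and then grouped by their profiles, so the likeness is a description.

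In the quasi-likelihood test of edgeR over all peaks, peak101056 had a log2 fold change (log2FC) from T1 of 4.28 ± 0.89 (SE) at T2 with an adjusted p of 0.0901, and 3.29 ± 0.57 at T4 with an adjusted p of 0.389. Peak94180 had 4.39 ± 1.02 (adjusted p = 0.116) and 3.33 ± 0.59 (adjusted p = 0.389) in the same edgeR test. Neither passed, nor did peak24738 or peak76788. Without T2R3, the edgeR test called all 4 at T2, with adjusted p of 0.000627 for peak101056, 0.00130 for peak94180, 0.00234 for peak24738 and 0.0183 for peak76788. With all libraries, DESeq2 called peak101056 (adjusted p = 0.0163), peak94180 (0.0393) and peak76788 (0.00970) at T2, and at T4 it called peak101056 (adjusted p = 1.66e-06), peak94180 (5.05e-06) and peak24738 (0.00590). With replicate number added to the model (a replicate block), edgeR called peak24738 at T2 (adjusted p = 0.0362). At T4 the same edgeR model called peak101056 (adjusted p = 0.0154) and peak94180 (0.00600). The calls of these 4 members thus depended on the tool and, in edgeR, on the model and, at T2, on T2R3.

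Peaks whose numbers neighbour these members had similar profiles. Among the 40 peaks within 20 numbers, r over the 12 libraries exceeded 0.7 with 12 for peak101056, 13 for peak94180, 17 for peak24738 and 9 for peak76788. The median member had 4.5 such neighbours and the median of all peaks was 1. At ranks 1001 to 2000 and 2001 to 5000 the median was 4, close to the members. The likeness ran without a break from 94171 to 94183 around peak94180 and from 76782 to 76788 below peak76788, where peak76782 is itself a member at rank 101. For peak101056 it skipped the next number and ran from 101058 to 101068. Counts of 9 or more were not rare, since 17.8% of members and 6.48% of all peaks had them. The shares were 16.5% at ranks 1001 to 2000 and 14.3% at ranks 2001 to 5000. Even at a distance of 100 numbers, r exceeded 0.7 for 11.3% of members, against 5.13% of all peaks.

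**Figure D3:**
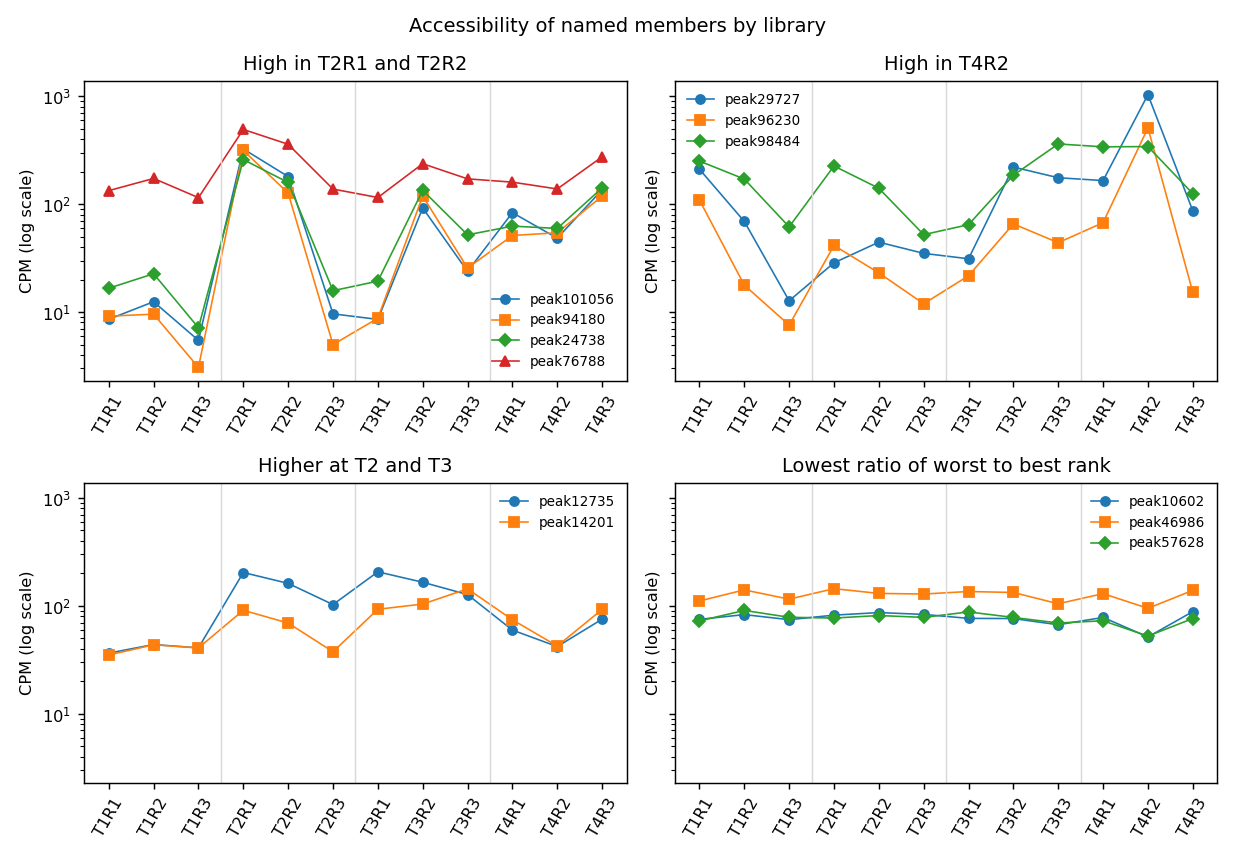
CPM by library on a log scale for 4 sets of members: 4 that were high in T2R1 and T2R2, 3 that were high in T4R2, peak12735 and peak14201, and the 3 members with the lowest ratio of worst to best rank. Lines join the libraries only to guide the eye; peak101056 spans 5.46 to 324 CPM and peak10602 spans 51.4 to 88.3 CPM.

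At the other extreme, peak10602, peak46986 and peak57628 had the lowest ratio of worst to best rank. Peak46986 stayed between rank 79 and rank 136, with 111, 140 and 115 CPM at T1, 144, 130 and 129 at T2, 136, 133 and 104 at T3, and 130, 94.8 and 139 at T4. Peak10602 stayed between ranks 545 and 907, and peak57628 between ranks 535 and 939. These peaks were picked for steady rank over all libraries, T4R1 and T4R2 included, so their place in those libraries follows from the choice. In CPM each was lowest in T4R2, at 51.4 for peak10602, 94.8 for peak46986 and 52.4 for peak57628.

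Peak19655 was all but missing from 1 library. It had 1 count in T4R1 (0.0864 CPM). Elsewhere it had 77.7, 92.6 and 90.4 CPM at T1, 107, 40.5 and 88.2 at T2, 90.9, 89.4 and 61.4 at T3, and 41.9 and 46.4 in T4R2 and T4R3. Peaks at its sides had counts in T4R1, with 206 for peak19653, 11 for peak19654, 168 for peak19656 and 20 for peak19657. Even so, peak19654, peak19656 and peak19657 had their lowest CPM of all libraries there, at 0.951, 14.5 and 1.73. Peak19654 and peak19657 were low throughout, with mean CPM of 2.16 and 3.70. No neighbour within 20 numbers exceeded r = 0.7 with peak19655, but peak19656 and peak19657 lay just under that limit, at 0.697 and 0.699. Outside the list, peak63520 (rank 1163) had 0, 1 and 0 counts in T1R2, T2R3 and T3R2 and up to 120 CPM elsewhere. Peak63110 (rank 1291) had 0 counts in T4R3 and 0.800 to 117 CPM elsewhere, so another library was low too. A count of 0 allows up to 3 counts. These libraries lay far below the median of the other libraries, which was 79.2 CPM for peak63520 and 78.5 CPM for peak63110.

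Adjacent peak numbers were examined because peaks are usually numbered along the genome, although the table does not state that these are. The numbers run from 8510 to 103289 without a gap. Of the members, 53 (5.3%) had another member as the next or previous number, in 22 pairs and 3 runs of 3, and 947 stood alone. A neighbouring number was itself a member in 2.8% of cases, against 1.06% of all peaks. The share was 1.9% at a distance of 2, between 0.6% and 2.1% at distances of 3 to 10, and 1.0% at 20. Of the distances up to 20, the share was highest at 1. The nearest neighbours of members were also more accessible than all peaks, whose median mean CPM was 5.37. The median was 9.36 at a distance of 1 and 6.91 at 2, but 5.11 at 20. Members were spread over the whole range of numbers, with a median gap of 63 and a largest gap of 718. When the numbers were cut into 10 equal parts, each part held between 89 and 122 members.

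**Figure D4:**
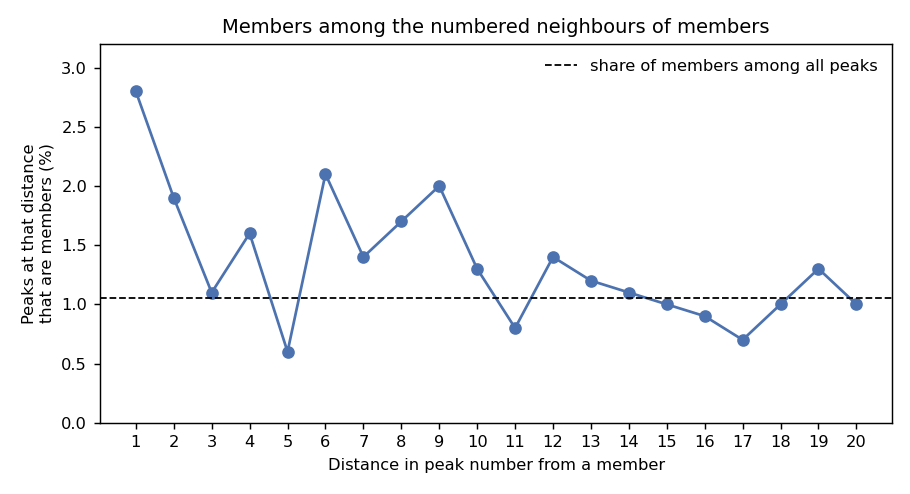
Percentage of peaks at each distance in number from a member that were members themselves, for distances 1 to 20. The dashed line is the share of members among all peaks, 1.06%; the share was 2.8% at a distance of 1.

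The runs of 3 were 29403 to 29405, 53969 to 53971 and 78453 to 78455. In the first run the peaks moved together, and all 3 had their lowest values in T4R1 and T4R2 (58.1 and 39.1 CPM for peak29403 against 96.3 to 164 elsewhere, 49.7 and 31.7 for peak29404 against 76.5 to 167, and 58.1 and 43.8 for peak29405 against 113 to 227). In the second run they did not. Peak53969 had 176 CPM in T4R1, its highest value, while peak53970 had 95.2 and peak53971 had 123. Adjacent members fell on the same side of the T4R1 division in 16 of 25 runs. With 411 members on the low side and 539 on the other, unrelated members often share a side too. No expected count was computed. A member and the next number had a median r of 0.42 over the 12 libraries, against 0.24 for all pairs of adjacent numbers, most of which have lower counts.

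Change over the time points was tested for all peaks with the edgeR quasi-likelihood test, and all 1000 members entered each comparison. To be called a differentially accessible region (DAR), a peak needed a log2FC beyond 1 in either direction together with an adjusted p below 0.05. At T2 against T1, 1 member was called, against 0.0964% of all tested peaks (89 of 92360). No member was called at T3 (0.00428% of all peaks) or T4 (0% of all peaks). T2, T3 and T4 as 1 group against T1 gave no member either (0.00739% of all peaks). T3 against T2, T4 against T2 and T4 against T3 each called 0 members and 0% of all peaks. The same counts held with the adjusted p alone. DESeq2 called more peaks than edgeR in each comparison. It called 6 members at T2 against T1 (1.74% of all peaks with an adjusted p), 2 at T3 (0.718%) and 3 at T4 (0.357%). The members' shares of 0.6% at T2 and 0.2% at T3 were below those of all peaks, and their 0.3% at T4 was near that of all peaks. DESeq2 called 2 members for T2, T3 and T4 as 1 group (0.587%), 1 at T4 against T2 (0.0855%), 0 at T3 against T2 (0.102%) and 0 at T4 against T3 (0.00422%). The member called at T4 against T2 was peak29727 (log2FC 3.30, DESeq2 adjusted p = 0.00438), which edgeR did not call (adjusted p = 0.561).

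An unadjusted edgeR p under 0.05 was found for 58 members at T2 (43 higher and 15 lower than at T1) against 12.2% of all peaks. There were 21 at T3 (9 higher, 12 lower) against 7.12%, and 19 at T4 (3 higher, 16 lower) against 12.1%. The shares of 5.8%, 2.1% and 1.9% were each below that of all peaks. The same held for T3 against T2 (35 members, 3.5% against 6.18%), T4 against T2 (21, 2.1% against 8.78%), T4 against T3 (6, 0.6% against 5.52%) and the 3 later time points together (24, 2.4% against 8.52%). The share of peaks under this edgeR threshold at T2 also differed along the order of accessibility. It was 6.5% at ranks 1001 to 2000, 9.63% at ranks 2001 to 5000, 13.2% at ranks 5001 to 20000 and 12.2% beyond rank 20000. The members thus had the lowest of these shares at T2. At T4 the share was 1.9% both for the members and at ranks 1001 to 2000. At T2 the differences of the members from T1 were small, with a median absolute log2FC of 0.13 against 0.27 for all peaks, and a median SE of 0.19 against 0.30. At T4 against T1 the median absolute log2FC was 0.30 against 0.44, but the median SE was 0.48 against 0.45. At T4 against T2 the median absolute log2FC of 0.399 was near the 0.401 of all peaks.

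The called member was peak12735, at rank 165. It had 36.5, 43.7 and 40.8 CPM at T1, 203, 161 and 103 at T2, 206, 165 and 127 at T3, and 59.6, 41.9 and 75.2 at T4. All T2 and T3 libraries lay above all T1 libraries, while T4 overlapped T1. Its log2FC was 1.96 ± 0.25 at T2 (edgeR adjusted p = 0.0270), 2.02 ± 0.30 at T3 (adjusted p = 0.140) and 0.48 ± 0.42 at T4 (adjusted p = 0.651). The call at T2 was lost in 5 of the 6 edgeR fits that left out a library, with adjusted p between 0.0529 and 0.141, though the log2FC stayed between 1.72 and 2.18. The next numbers showed the same profile at lower levels. Peak12736 had 25.4, 22.7 and 21.2 CPM at T1, 80.5, 53.7 and 35.9 at T2, and 82.5, 63.3 and 47.7 at T3, and its r with peak12735 exceeded 0.7, as did that of peak12737.

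Other members with the highest log2FC among those whose libraries did not overlap with T1 did not pass the edgeR test. At T2, peak19644 had 53.0, 49.2 and 31.4 CPM at T1 and 200, 144 and 52.8 at T2, where T2R3 lay at the level of T1R1 before TMM scaling (log2FC 1.59 ± 0.39, adjusted p = 0.125). Peak19155 had 80.8, 77.8 and 63.3 CPM at T1 and 267, 220 and 91.3 at T2 (1.40 ± 0.32, adjusted p = 0.11). In both, T2R3 was far below T2R1 and T2R2. DESeq2 called peak19155 at T2 (adjusted p = 0.000354). At T3, where peak19644 had a log2FC of 0.98, peak14201 had 35.0, 43.5 and 40.7 CPM at T1 and 92.9, 104 and 144 at T3 (1.45 ± 0.25, adjusted p = 0.141), and its neighbour peak14199, at rank 1018 just outside the list, had 24.5, 29.6 and 19.0 CPM at T1 and 96.4, 118 and 172 at T3. DESeq2 called peak14201 at T3 (adjusted p = 9.14e-07), and it called peak12735 at both T2 (7.60e-12) and T3 (1.25e-10).

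The lowest log2FC among members whose libraries did not overlap with T1 were of smaller size. At T2, peak59577 had 98.7, 117 and 95.4 CPM at T1 and 61.8, 52.8 and 86.1 at T2 (log2FC -0.61 ± 0.22, edgeR adjusted p = 0.291). Peak94340 and peak60864 had log2FC of -0.59 and -0.58. At T3, peak52764 had 104, 99.0 and 79.1 CPM at T1 and 55.2, 44.0 and 53.8 at T3 (-0.92 ± 0.24, edgeR adjusted p = 0.304), ahead of peak102024 at -0.86 and peak85919 at -0.72. At T4, peak59577 had 24.7, 22.9 and 69.4 CPM (-1.44 ± 0.55) and peak32662 had 31.9, 27.4 and 53.2 CPM against 89.1, 101 and 88.2 at T1 (-1.37 ± 0.46, edgeR adjusted p = 0.389 for both). Peak19655, with 1 count in T4R1, had -1.68 ± 1.06 at T4. None passed the test, and in each T4 case T4R3 was nearest to T1.

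As a list, the members were slightly higher at T2 and lower afterwards. The median log2FC of the members from T1 to T2, T3 and T4 was 0.07, -0.10 and -0.28, against -0.00, 0.02 and 0.06 for all tested peaks. Positive values numbered 666 for T2, 242 for T3 and 156 for T4. These shares of 66.6%, 24.2% and 15.6% stood against 49.8%, 52.4% and 54.2% of all tested peaks. The most frequent course, in 382 members, was positive at T2 and negative at T3 and T4, followed by negative at all 3 in 302. Such courses were not counted over all peaks, and all 3 comparisons share the T1 libraries. These shifts were small and not stable. With loess offsets, which even out differences that depend on level, the medians at T3 and T4 turned to 0.02 and 0.08. The median at T2 was -0.05 without T1R1 and 0.21 without T1R2, that at T3 was 0.05 without T1R2 and 0.04 without T3R3, and that at T4 was -0.00 without T4R2, -0.14 without T1R2, -0.44 without T1R1 and -0.55 without T4R3. The peaks at ranks 1001 to 2000 and 2001 to 5000 had medians of -0.30 and -0.29 at T4, close to the members, and those beyond rank 20000 had 0.18.

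**Figure D5:**
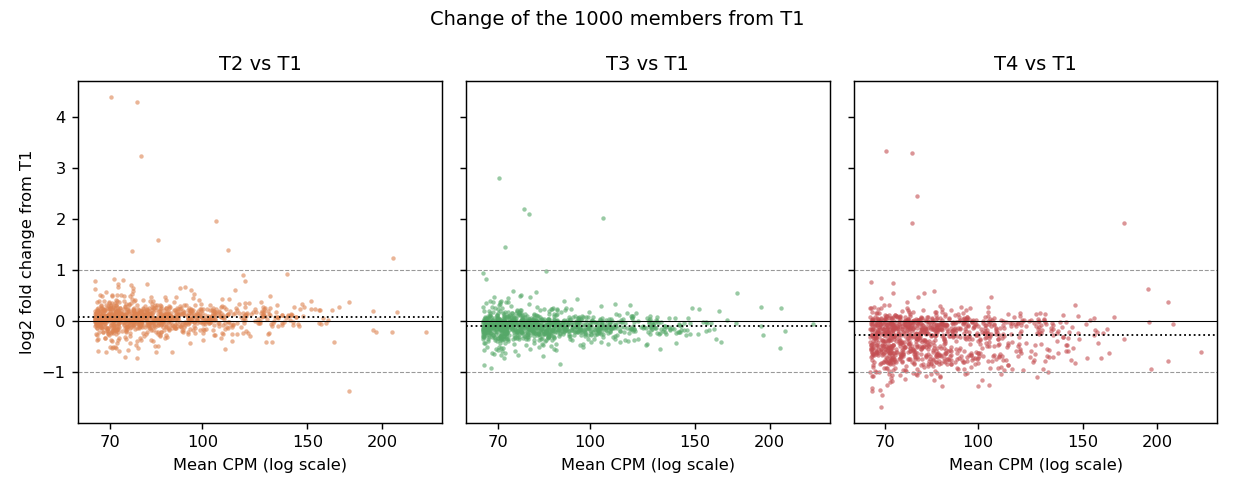
Log2 fold change from T1 against mean CPM (log scale) for the 1000 members at T2, T3 and T4. Points are members, the dotted line is their median (0.07, -0.10 and -0.28) and dashed lines mark 1 and -1; 9, 5 and 40 members lie beyond the dashed lines.

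An absolute log2FC above 1 was reached by 9 members at T2 (8 positive), 5 at T3 (all positive) and 40 at T4 (5 positive, 35 negative), which is 0.9%, 0.5% and 4.0% against 6.18%, 4.11% and 18.2% of all peaks. At T2 the TMM-scaled values of all 3 libraries lay above all T1 libraries in 50 members (5.0%, against 7.89% of all peaks) and below in 27 (2.7%, against 9.34%). At T3 they lay above in 8 (5.67% of all peaks) and below in 28 (6.91%), and at T4 above in 4 (6.09%) and below in 39 (7.86%). Each of these shares was below that of all peaks. Against T2 the balance was different. T3 lay above T2 in 4 members (6.21% of all peaks) and below in 138 (5.8%), and T4 lay above in 1 (6.05%) and below in 109 (5.78%). The T2 libraries were the most alike over the members, with the median SD of 0.13 given above.

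In edgeR fits of time point alone, T4R3 decided whether members were called at T4 against T1 and T2, but not against T3. With the replicate block and T4R3 kept, edgeR called 2 members at T4 against T1 (0.321% of all peaks). Without T4R3, the edgeR test of time point alone at T4 against T1 called 203 members, 3 higher (against 7.22% of all peaks) and 200 lower (20.0%, against 7.03%). Against T2 it called 403 members, 2 higher (against 8.35%) and 401 lower (40.1%, against 7.84%). Against T3 it called 0 members (0.00212% of all peaks). These fits compared T4R1 and T4R2, the 2 libraries that stood apart, with the earlier time point. At T2, leaving out T2R3 gave 13 called members against T1, 12 higher (1.2%, against 0.914% of all peaks) and 1 lower (0.1%, against 0.777%). They included peak12735 and the 4 members followed above for their shared pattern. Each biological replicate gave 1 library, so differences between fish and differences between libraries cannot be told apart.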

How the data were processed

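ATAC-seq libraries of salmon liver were analysed, 12 in all, grouped by the time point in their sample labels. The authors mapped reads with Bowtie2 2.3.5.1 to the ICSASG_v2 assembly, discarded mitochondrial reads, duplicates and reads with several positions, and used MACS2 for peak calling. Peaks were merged over time points, and HTSeq 0.11.1 gave the reads in each merged peak. A shift of read positions for Tn5 is not given in the sources used here. The deposited counts are whole numbers without normalization. A second deposited table of log2 values, log2(CPM + 1) computed by the authors, was not used here.

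CPM was computed from column totals, and the 1000 peaks with the highest mean CPM were taken. For every pair of time points, the 6 libraries concerned entered a quasi-likelihood test (edgeR 4.0.16, R 4.3.3) with TMM factors, after a filter of CPM over 1 in 2 or more libraries. P-values were adjusted by Benjamini-Hochberg over all tested peaks. Dividing the size of a log2FC by the square root of F gave its standard error. Profiles used log2(TMM-scaled CPM + 0.5). Shares were compared by exact permutation. Of these tests, only the edgeR test was tried on simulated data, and only for T2 against T1. Tables were made with Python 3.11.15 and pandas 2.3.3.

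The members and the rules below were chosen with earlier results of these data known. Named peaks were the 10 highest, 2 on each side of the limit, the 3 highest and 3 lowest in the ratio of worst to best rank, every member called, the 3 highest and 3 lowest log2FC in each comparison with T1 among members whose libraries did not overlap, 2 of the longest runs of numbers, and members with 10 counts or fewer in a library. Peak96230, peak63520, peak63110, peak19653, peak19654, peak19656, peak19657, peak12736, peak12737, peak14199, peak39856, peak76782, the division of T4R1 and the leaving out of both T4R1 and T4R2 were chosen after the values were seen. P-values measure the spread between 3 libraries a time point.

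Alternatives were DESeq2 1.42.0, library totals without TMM, loess offsets with a span of 0.3, other filters, a replicate block, 1 fit of all 12 libraries, other choices of members, and leaving out each library.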

Additional observations from a re-analysis of the deposited data

How the results depend on the processing

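Leaving out each replicate in turn gave 0 to 13 called members at T2 against T1 (0 to 14 by adjusted p alone), where the highest came without T2R3, with 1.69% of all peaks called (1.79% by adjusted p alone). It gave 0 to 1 at T3 by either rule, the highest without T3R3 (0.0208% of all peaks), and 0 to 203 at T4 by either rule, the highest without T4R3 (14.3%). At T4 against T2 it gave 0 to 403 (16.2% without T4R3), and for the later time points as 1 group 0 to 5 (0.892% without T4R3). The median log2FC of the members at T2 ranged from -0.052 to 0.21. The difference in share of counts ranged from -0.0313 to 0.964 percentage points at T2, from -0.805 to 0.189 at T3 and from -2.42 to -0.306 at T4, all against T1.

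By DESeq2 the counts of called members were 6 at T2, 2 at T3, 3 at T4, 1 at T4 against T2 and 2 for the later time points as 1 group, with the shares of all peaks given above. By adjusted p alone they were 9 at T2 (2.28% of all peaks), 3 at T3 (0.787%) and 3 at T4 (0.357%). At T3, library totals without TMM gave 1 by either rule (0.00642% of all peaks) and loess offsets gave 1 (0.00749%), and loess offsets gave 1 for the later time points as 1 group (0.0528%). A fit of all 12 libraries gave 0 at T2 by either rule (0% of all peaks). The replicate block gave 3 at T2 (peak12735, peak19644 and peak24738, 0.324% of all peaks) and 2 at T4 (peak101056 and peak94180, 0.321%) by either rule. Deviations of same-numbered libraries had correlations from -0.50 to 0.319, and whether such libraries share more than a number was not tested. The cause of the changes in these counts was not tested.

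Among the 500 highest peaks, 108 were in the own top 500 of every library and 25 were next by number to another of the 500. Among the 2000 highest, the same counts taken within that list were 544 and 154. The 1000 peaks of highest median CPM shared 940 with the members. With the list chosen again without T4R1 and T4R2, 453 of its peaks were in the own top 1000 of all 10 libraries. Depth limited T4R2 most, with a median of 217 counts per member.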
